A study of Mus musculus with 30 samples.

Results

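The 10 genes of the circadian clock examined here were followed in the ventral prostate (VP) of 30 mice. They were selected by gene symbol, with earlier results of these data known. All 10 were found among the 39179 gene identifiers of the count tables. They are the activators Arntl (also known as Bmal1), Npas2 and Clock, the repressors Cry1, Per1, Per2 and Per3, the nuclear receptors Nr1d1 and Nr1d2 (REV-ERB alpha and REV-ERB beta), and the output regulator Dbp. The mice were C57BL/6 males fed isocaloric normolipidic diets from weaning, with linseed oil (LO, rich in ω-3 fatty acids), soybean oil (SO, rich in ω-6 fatty acids) or lard (PF, rich in saturated fatty acids) as the lipid source. In each diet 5 mice were sampled after 12 weeks and another 5 per diet after 32 weeks, and the labels number the mice of each group from 1 to 5. RNA was prepared from the whole gland, so fewer cells of a type and less RNA per cell cannot be told apart. The mice were kept in a regular light and dark cycle, but the hour at which each gland was collected is not given in the sources used here.

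The clock is a transcriptional feedback loop that runs in nearly every cell of the body. ARNTL pairs with CLOCK, or with its close relative NPAS2, and the pair activates genes that carry E-boxes. Among the activated genes are the Per and Cry genes, whose proteins return to the nucleus and block the activators, and Dbp, which encodes a factor that acts on D-boxes. Nr1d1 and Nr1d2 are activated in the same way, and their proteins in turn repress Arntl, Npas2 and Clock. In a tissue with a running clock the activators and the Per and Nr1d genes therefore peak at opposite times of day. Per1 and Nr1d1 also respond quickly to stimuli such as glucocorticoids, feeding and stress signals.

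The promoters were searched for the motifs of these loops. Windows from 250 bases before to 50 bases after the RefSeq transcription start were taken from GRCm38.p6 for 9 of the 10 genes (13 windows), and Per2 is named without one. The 5 motifs on both strands were CACGTG (E-box), its variant CACGTT, the D-box forms TTATGTAA and TTACGTAA, and TAGGTCA, the element read by the REV-ERB receptors. These letters occurred in 7.15%, 4.69%, 0.935%, 0.119% and 2.61% of all 32817 windows of this length, respectively. Of the 13 windows 5 held a motif, and these are printed here in the direction of transcription because they place an activator, a period gene and a REV-ERB gene side by side. Capitals mark the motif, and a motif on the opposite strand appears as its reverse complement. The Arntl window (chr7:113207261-113207560, plus strand) holds TAGGTCA 30 bases downstream of the start. The Cry1 window (chr10:85185005-85185304, minus strand) holds CACGTG 60 bases upstream and CACGTT, on the opposite strand, 79 bases upstream. The Per1 window (chr11:69098699-69098998, plus strand) holds CACGTG 166 bases upstream. The Per3 window (chr4:151044616-151044915, minus strand) holds TTATGTAA 205 and 158 bases upstream, and the Nr1d1 window (chr11:98775328-98775627, minus strand) holds CACGTT, on the opposite strand, 28 bases upstream. No window held TTACGTAA. A match of letters does not show that a factor binds there.
Arntl: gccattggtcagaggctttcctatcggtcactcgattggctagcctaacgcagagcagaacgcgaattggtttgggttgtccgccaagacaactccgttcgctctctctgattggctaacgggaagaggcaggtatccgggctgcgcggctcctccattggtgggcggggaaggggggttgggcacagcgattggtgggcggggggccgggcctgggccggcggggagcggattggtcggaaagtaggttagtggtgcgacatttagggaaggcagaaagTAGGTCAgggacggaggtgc
Cry1: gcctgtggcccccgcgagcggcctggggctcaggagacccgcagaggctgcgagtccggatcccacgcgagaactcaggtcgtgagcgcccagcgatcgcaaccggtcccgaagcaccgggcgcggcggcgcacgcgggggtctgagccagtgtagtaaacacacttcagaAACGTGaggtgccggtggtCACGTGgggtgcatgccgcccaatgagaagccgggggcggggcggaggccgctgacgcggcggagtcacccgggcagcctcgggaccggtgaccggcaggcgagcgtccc
Per1: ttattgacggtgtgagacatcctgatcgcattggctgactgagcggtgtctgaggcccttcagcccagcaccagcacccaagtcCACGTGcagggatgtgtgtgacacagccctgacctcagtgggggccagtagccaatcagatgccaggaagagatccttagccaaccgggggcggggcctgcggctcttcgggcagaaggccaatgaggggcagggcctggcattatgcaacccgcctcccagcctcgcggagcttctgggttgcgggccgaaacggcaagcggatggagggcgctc
Per3: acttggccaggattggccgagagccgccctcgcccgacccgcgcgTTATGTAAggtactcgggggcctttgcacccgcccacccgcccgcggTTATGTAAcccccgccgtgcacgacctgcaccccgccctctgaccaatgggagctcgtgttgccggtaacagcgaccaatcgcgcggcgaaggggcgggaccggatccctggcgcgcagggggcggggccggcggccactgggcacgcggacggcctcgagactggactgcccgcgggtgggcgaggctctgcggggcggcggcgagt
Nr1d1: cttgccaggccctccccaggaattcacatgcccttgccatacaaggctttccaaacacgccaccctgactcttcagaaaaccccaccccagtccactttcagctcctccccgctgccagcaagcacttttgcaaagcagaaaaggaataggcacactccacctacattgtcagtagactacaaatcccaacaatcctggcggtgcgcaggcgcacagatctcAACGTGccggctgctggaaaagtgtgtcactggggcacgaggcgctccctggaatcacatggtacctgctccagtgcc

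Between 27590631 and 41301707 read pairs per mouse were assigned to genes (median 33684704), and within each group any pair of mice differed by more than sampling noise (lowest chi-square per degree of freedom 22.7 over 60 pairs). The libraries carried the secretory transcripts of the VP, with Sbp at a median of 163132 counts scaled to a library of 1e6 (counts per 1e6, CPM) and Spink1 at 46584 CPM. The 5 seminal vesicle markers together did not exceed 0.306 CPM in any mouse, and Svs6 was at 0 in all 30. Other tissues were present in uneven amounts. The 3 skeletal muscle markers together ranged from 40.4 to 440 CPM between mice, and the 4 adipocyte markers from 18.4 to 532 CPM. The part of skeletal muscle in the clock gene levels was not tested. The share of counts taken by the 10 largest genes varied from 19.6% to 35.2%, which is why CPM values below were scaled with TMM. Read pairs falling on no annotated gene made up 6.67% of the pairs in PF mouse 1 at 32 weeks and between 8.92% and 12.2% in all others. The summed level of 7 leukocyte markers, none of which edgeR called between diets at either time point, ranged from 195 to 534 CPM in PF, 160 to 205 in SO and 131 to 346 in LO mice at 12 weeks, and from 210 to 736 CPM over the 3 diets at 32 weeks.

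Relative to exon length, the output and repressor genes were on average expressed above the activators. For Clock this depended on its exon length of 13727 bases. In CPM its median (57.2) was above those of Cry1, Per2, Dbp, Nr1d1 and Per1 (20.4 to 44.0) and below those of Per3 (88.5) and Nr1d2 (103). Per kilobase of exon, and averaged over the 30 mice, the order of levels was Nr1d2 (19.2 CPM per kb), Nr1d1 (15.1), Dbp (14.3), Per3 (9.05), Per1 (8.67), Per2 (6.50), Cry1 (5.97), Clock (4.09), Npas2 (0.654) and Arntl (0.559). Clock was above Npas2 in all 30 mice and Dbp above Per3 in 29 of them, whereas neighbours such as Nr1d1 and Dbp (16 of 30 mice), Per3 and Per1 (18), Per2 and Cry1 (19) and Npas2 and Arntl (20) changed places from mouse to mouse. Arntl and Npas2 rested on 62 to 254 and 30 to 209 read pairs per mouse, against 444 or more for every other member, so their values carry more counting error. Part of the Nr1d1 exons (8.55%) overlaps Thra, and part of the Dbp exons (18%) overlaps Sphk2, both on the opposite strand. The strand setting of the counting is not given in the sources used here, so read pairs from the genes on the 2 strands cannot be told apart there. On GRCm38 the genes lie at chr7:113207465-113314126 (Arntl, plus strand), chr1:39193731-39363236 (Npas2, plus), chr5:76209868-76304792 (Clock, minus), chr10:85131700-85185064 (Cry1, minus), chr11:69095217-69109960 (Per1, plus), chr1:91415982-91459324 (Per2, minus), chr4:151003652-151044665 (Per3, minus), chr11:98767932-98775333 (Nr1d1, minus), chr14:18204054-18239127 (Nr1d2, minus) and chr7:45705088-45710203 (Dbp, plus), and the counts cover their exons.

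Arntl, the gene without which the molecular clock stops, was highest in the PF mice at 12 weeks. PF mice 1 to 5 had 4.01, 7.11, 6.57, 4.72 and 5.63 CPM. SO mice 1 to 5 had 3.25, 3.72, 3.52, 3.52 and 3.23 CPM, and LO mice 1 to 5 had 2.12, 4.23, 2.23, 3.04 and 3.43 CPM. Every PF mouse was above every SO mouse, while LO mouse 2 (4.23 CPM) lay above PF mouse 1 (4.01 CPM). Group means were 5.61 ± 1.28 CPM in PF, 3.45 ± 0.208 in SO and 3.01 ± 0.875 in LO mice (SD, n = 5 each). The log2 fold change was 0.71 (SE 0.201) in PF against SO and 0.90 (SE 0.202) in PF against LO mice. Neither passed the edgeR quasi-likelihood test after Benjamini-Hochberg adjustment over 15873 genes (adjusted p = 0.221 and 0.286, unadjusted p = 0.00307 and 0.000447), and both passed the DESeq2 Wald test (adjusted p = 0.0492 and 0.00987).

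**Figure D1:**
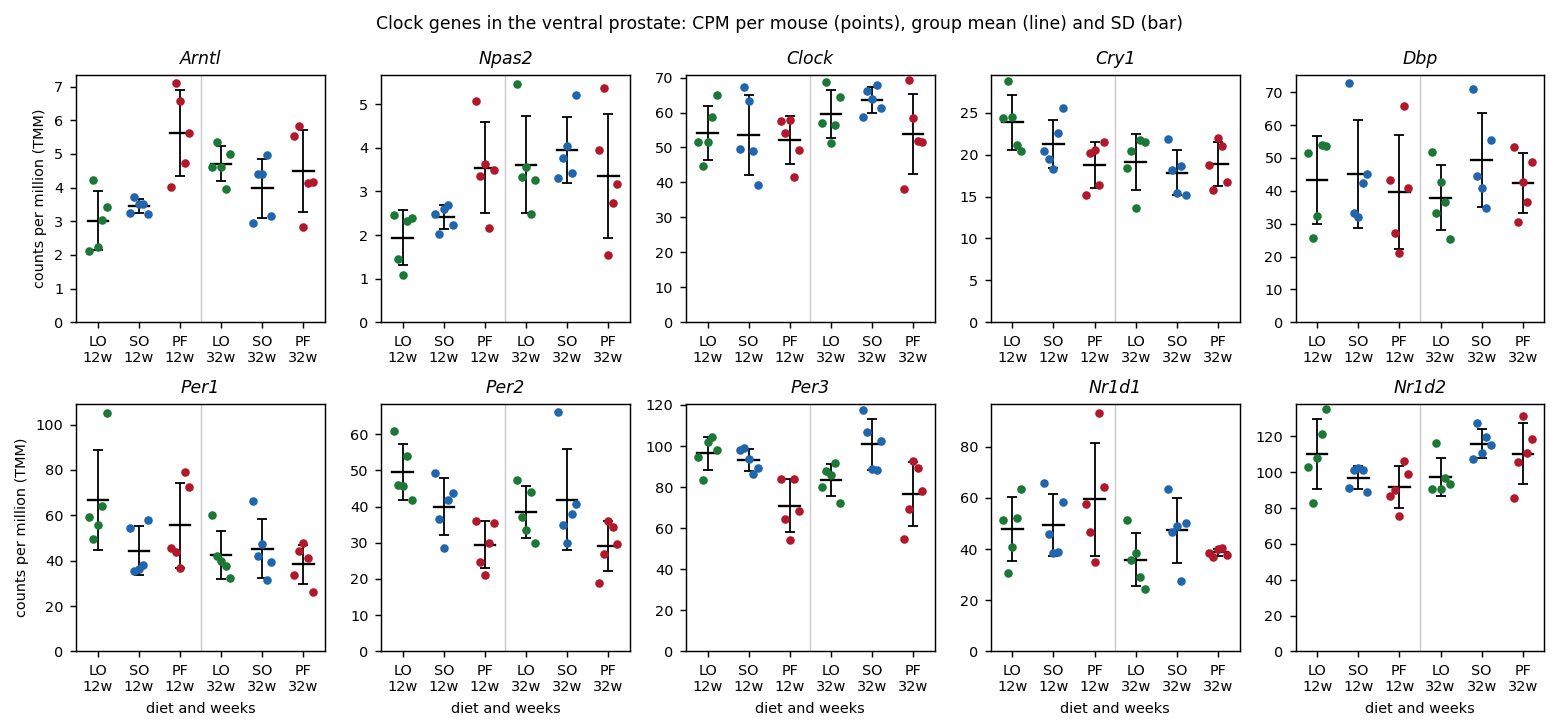
CPM (vertical axes, from 0, TMM scaled) of each clock gene in every mouse, by diet and weeks on the diet (horizontal axes, LO green, SO blue, PF red). Points are mice 1 to 5 from left to right, lines are group means and bars SDs. At 12 weeks the 5 PF mice lie between 4.01 and 7.11 CPM for Arntl, all above the SO mice, and between 21.2 and 36.0 CPM for Per2, all below the LO mice.

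Npas2, which can stand in for Clock, had the same order of diet means as Arntl at 12 weeks. Mouse by mouse within the diets the 2 genes were not alike there (Pearson r = -0.05). It averaged 3.54 ± 1.04 CPM in PF, 2.41 ± 0.272 in SO and 1.94 ± 0.632 in LO mice at 12 weeks (SD, n = 5 each), with a range of 2.15 to 5.07 CPM in PF mice that overlapped both other groups. Its log2 fold change was 0.56 (SE 0.240, edgeR adjusted p = 0.536) against SO and 0.87 (SE 0.241, edgeR adjusted p = 0.366, DESeq2 adjusted p = 0.0591) against LO. Clock, the third activator, lay at 52.0 ± 6.85, 53.7 ± 11.4 and 54.3 ± 7.73 CPM in PF, SO and LO mice (SD, n = 5 each), and its log2 fold changes of -0.04 (SE 0.145) and -0.06 (SE 0.145) were smaller than their errors.

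Per2, a repressor of the ARNTL-CLOCK pair, had the opposite order of diets. PF mice 1 to 5 had 36.0, 24.7, 21.2, 29.9 and 35.5 CPM at 12 weeks. LO mice 1 to 5 had 60.8, 46.0, 45.6, 53.8 and 41.7 CPM, and SO mice 1 to 5 had 49.3, 36.5, 28.5, 41.8 and 43.8 CPM. All 5 PF mice were below all 5 LO mice, and they overlapped SO mouse 3. Means were 29.4 ± 6.52 CPM in PF, 40.0 ± 7.88 in SO and 49.6 ± 7.67 in LO mice (SD, n = 5 each). The log2 fold change was -0.75 in PF against LO (SE 0.159, edgeR adjusted p = 0.253, DESeq2 adjusted p = 0.00627) and -0.44 in PF against SO (SE 0.159, edgeR adjusted p = 0.386, DESeq2 adjusted p = 0.233).

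Per3, the period gene least needed for rhythm itself, also had its lowest values in PF mice. PF mice 1 to 5 had 83.8, 64.4, 54.3, 84.2 and 68.4 CPM at 12 weeks, against 98.2, 98.8, 93.9, 86.3 and 89.3 CPM in SO mice 1 to 5. The 5 LO mice had 94.5, 83.3, 102, 104 and 98.1 CPM in the same order. PF and SO mice did not overlap, and only LO mouse 2 fell within the PF range. The log2 fold change was -0.39 against SO (SE 0.102, edgeR adjusted p = 0.175, DESeq2 adjusted p = 0.0362) and -0.44 against LO (SE 0.102, edgeR adjusted p = 0.286, DESeq2 adjusted p = 0.0250).

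The other repressors and outputs did not share one direction at 12 weeks. Cry1, whose protein is a strong repressor of the loop, was 0.34 lower in PF than in LO mice on the log2 scale (SE 0.125, edgeR adjusted p = 0.473), and Nr1d2 was 0.26 lower (SE 0.116, edgeR adjusted p = 0.525). Nr1d1 and Per1 ranged widely within PF mice, from 34.9 to 93.3 and from 36.6 to 78.9 CPM. Nr1d1 had positive log2 fold changes in PF mice, 0.27 (SE 0.239) against SO and 0.32 (SE 0.239) against LO. Per1 differed in sign, 0.33 (SE 0.239) against SO and -0.26 (SE 0.238) against LO, and Dbp lay within its error in both (-0.18, SE 0.297, and -0.13, SE 0.297).

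Set against all genes, edgeR called 0 of the 10 clock genes in either comparison, as it called 0% of all 15873 genes. An unadjusted p under 0.05 was reached by 7.99% of genes in PF against SO and by 9.24% in PF against LO. At an unadjusted p under 0.05 in PF against SO, 2 members were higher (Arntl and Npas2) and 2 lower (Per2 and Per3), where 6.14% of all genes were higher and 1.86% lower by the same rule. In PF against LO, 2 were higher (Arntl and Npas2) and 4 lower (Cry1, Per2, Per3 and Nr1d2), where 4.31% of all genes were higher and 4.93% lower. DESeq2 called 2 members in PF against SO (Arntl and Per3) and 3 in PF against LO (Arntl, Per2 and Per3), beside 1.26% and 0.522% of the genes to which it gave an adjusted p. Complete separation of the groups, as in Arntl (higher) and Per3 (lower) in PF against SO and Per2 (lower) in PF against LO, was found in 1.13%, 0.435% and 1.37% of all genes in those directions. The median absolute log2 fold change of the members was 0.30 and 0.33, against 0.09 and 0.11 over all genes. The members were chosen with earlier results of these data known. Setting them against all genes is therefore a description and no independent test. Both comparisons use the same PF mice, so their likeness is no separate evidence. All 7 leukocyte markers were higher in PF mice in both comparisons (median log2 fold change 1.14 against SO and 0.65 against LO), and all 4 smooth muscle markers were lower (median -0.11 and -0.21), with 0 called by edgeR and 4 leukocyte markers called by DESeq2 against SO. All 10 immediate early genes tested, which are induced within minutes of a stimulus, had higher levels in the PF mice when set against SO (median 1.22, 0 called). The part of these genes in the clock gene differences was not tested.

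**Figure D2:**
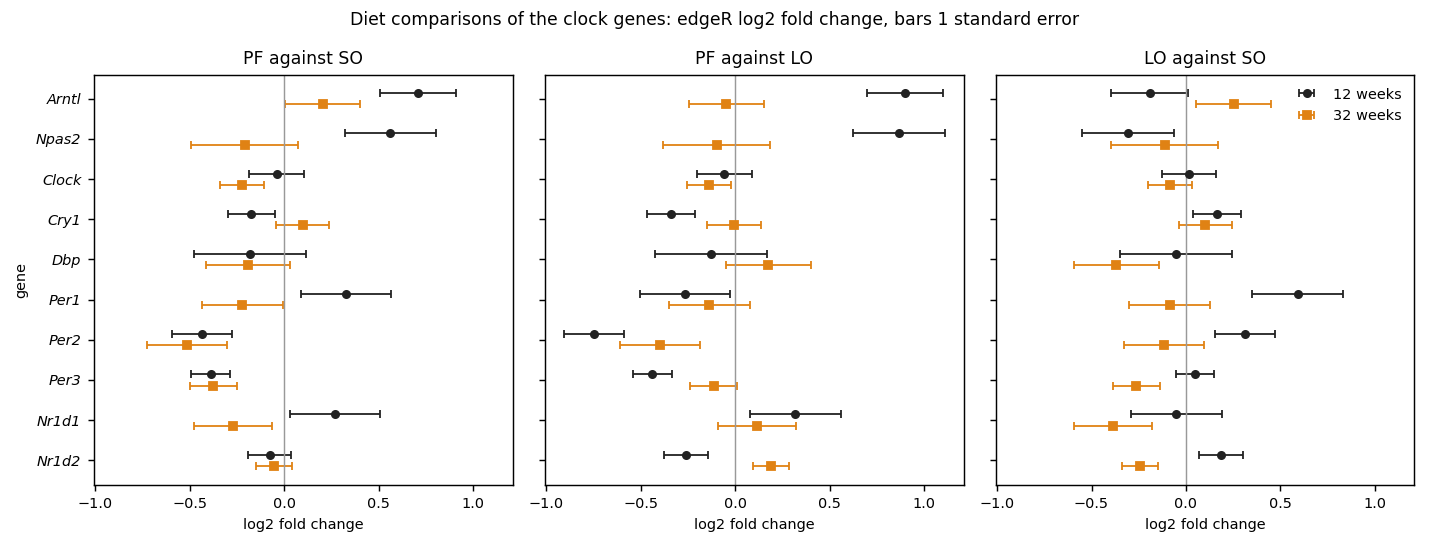
edgeR log2 fold change of each clock gene (horizontal axes, bars 1 SE) in the 3 diet comparisons, at 12 weeks (black circles) and 32 weeks (orange squares). Arntl lies at 0.71 and 0.90 in the comparisons of PF at 12 weeks and at 0.20 and -0.05 at 32 weeks, while Per2 lies to the left of 0 in all 4.

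LO and SO mice had overlapping clock gene levels at 12 weeks. Per1, the period gene that responds most quickly to signals, was the exception at an unadjusted p under 0.05, with 66.8 ± 22.1 CPM in LO and 44.5 ± 10.9 CPM in SO mice (SD, n = 5 each, log2 fold change 0.59, SE 0.240, edgeR adjusted p = 0.999). LO mouse 5 alone had 105 CPM, the next LO mouse 64.3. Both groups overlapped for all 10 genes, while 0.384% of all genes were higher and 0.347% lower in LO mice without overlap. edgeR and DESeq2 each called 0 members, as they called 0% of all genes. An unadjusted p under 0.05 was reached by 4.28% of genes. The 10 immediate early genes tested were all higher in LO than in SO mice, Jun, Atf3 and Dusp1 by 1.58, 2.43 and 1.80 on the log2 scale (SE 0.416, 0.786 and 0.50, edgeR adjusted p = 0.999 for each), and their part in the Per1 values was not tested.

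After 32 weeks the diets overlapped for all 3 activators. Arntl averaged 4.50 ± 1.22 CPM in PF, 3.97 ± 0.879 in SO and 4.71 ± 0.519 in LO mice (SD, n = 5 each), with overlapping ranges of 2.82 to 5.84, 2.95 to 4.97 and 3.96 to 5.35 CPM. Npas2 averaged 3.35 ± 1.43, 3.95 ± 0.760 and 3.62 ± 1.11 CPM in the same order. The log2 fold change of Arntl was 0.20 (SE 0.199) in PF against SO and -0.05 (SE 0.198) in PF against LO.

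Per2 and Per3 had lower values in PF than in SO mice at 32 weeks. PF mice 1 to 5 had 18.8, 27.0, 35.9, 34.2 and 29.6 CPM for Per2, and SO mice 1 to 5 had 66.0, 34.9, 30.02, 38.0 and 40.7 CPM. The groups overlapped, and SO mouse 1 held the highest Per2 value of all 30 mice. The log2 fold change of Per2 was -0.51 (SE 0.212, edgeR adjusted p = 0.419) and that of Per3 -0.38 (SE 0.125, edgeR adjusted p = 0.371), with Per3 at 76.8 ± 15.5 CPM in PF and 101 ± 12.5 CPM in SO mice (SD, n = 5 each). These were 2 of 10 members below an unadjusted p of 0.05, beside 10.8% of all genes, and both were lower, as were 5.07% of all genes. Without SO mouse 1 the log2 fold change of Per2 was -0.28 (edgeR adjusted p = 0.554). In PF against LO mice no member reached an unadjusted p of 0.05 (8.60% of genes did), and in LO against SO mice Nr1d2 did, at -0.24 on the log2 scale (SE 0.0950, edgeR adjusted p = 0.9997), beside 3.48% of genes. By edgeR 0 members were called in any of the 3 comparisons at 32 weeks, as 0% of all 16218 genes were, and by DESeq2 also 0, beside 0.716% of genes for PF against SO, 0.571% for PF against LO and 0.0234% for LO against SO.

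The clock genes were next compared between 12 and 32 weeks on the same diet, where time on the diet, age and any batch of collection or sequencing cannot be told apart. In LO mice Npas2 and Arntl had higher values at 32 weeks. Npas2 had 2.46, 1.45, 1.08, 2.32 and 2.40 CPM in LO mice 1 to 5 at 12 weeks and 5.46, 3.33, 3.55, 2.49 and 3.26 CPM in the other 5 LO mice at 32 weeks, with no overlap. Its log2 fold change was 0.89 (SE 0.269, edgeR adjusted p = 0.0631, DESeq2 adjusted p = 0.0235). Arntl, with 4.60, 5.35, 4.62, 3.96 and 5.01 CPM in LO mice 1 to 5 at 32 weeks, overlapped the 12-week values only through LO mouse 2 of 12 weeks (4.23 CPM) and had a log2 fold change of 0.64 (SE 0.198, edgeR adjusted p = 0.0662, DESeq2 adjusted p = 0.0292). Per1 and Cry1 were lower at 32 weeks by 0.65 (SE 0.238) and 0.32 (SE 0.135) on the log2 scale (edgeR adjusted p = 0.114 and 0.173). In this comparison edgeR called 2.70% of all 16605 genes and 0 members, and DESeq2 called 6.70% and 2 members (Arntl and Npas2). At an unadjusted p under 0.05 there were 4 members and 20.5% of genes. Groups without overlap in the higher direction, as for Npas2, were found in 1.99% of genes.

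In SO mice Npas2 was again higher at 32 weeks, at 3.95 ± 0.760 against 2.41 ± 0.272 CPM (SD, n = 5 each), with all 5 older mice above all 5 younger ones (log2 fold change 0.71, SE 0.268, edgeR adjusted p = 0.114). Nr1d2, which represses Arntl and Npas2, was also above the 12-week mice in every 32-week mouse (116 ± 7.88 against 97.0 ± 6.34 CPM, SD, n = 5 each, log2 fold change 0.26, SE 0.112, edgeR adjusted p = 0.182). A higher level without overlap was found in 5.13% of all genes there, and edgeR called 6.46% of genes and 0 members, as DESeq2 called 7.84% and 0. These were also the 2 members with an unadjusted p under 0.05, which 19.7% of genes reached. In PF mice Arntl was 0.32 lower on the log2 scale (SE 0.196, edgeR adjusted p = 0.607, 12-week mean 5.61 CPM, 32-week mean 4.50 CPM), Npas2 differed by less than its error (-0.08, SE 0.265), and Nr1d1 was 0.62 lower (SE 0.234, edgeR adjusted p = 0.364), with 0 members called, beside 0.0301% of genes by edgeR and 0.291% by DESeq2. Per1, Nr1d1 and Nr1d2 had an unadjusted p under 0.05, as did 10.2% of genes. The 10 largest genes took 22.7% ± 3.19 of the counts in LO and 23.6% ± 1.52 in SO mice at 32 weeks, against 29.4% ± 3.80 and 31.8% ± 2.55 at 12 weeks (SD, n = 5 each). The scaling moved the values of these comparisons. With library totals and no scaling factors, the median of all genes shifted by 0.17 in LO and 0.20 in SO mice on the log2 scale, and edgeR called 2 members in each, Arntl and Npas2 in LO (log2 fold change 0.83 and 1.06, adjusted p = 0.0248 and 0.0349) and Npas2 and Nr1d2 in SO (0.91 and 0.45, adjusted p = 0.0396 and 0.0158). All 7 leukocyte markers were higher at 32 weeks in LO (median log2 fold change 0.86, 0 called by edgeR) and in SO mice (1.33, 6 called). So were, in LO and SO mice, the 3 skeletal muscle markers (3.04 and 2.89, 0 called) and the 3 basal epithelial markers (0.64 and 0.46, 2 and 1 called). The 4 adipocyte markers (-0.66 and -1.01) and the 4 smooth muscle markers (-0.25 and -0.12) were lower, with 0 called. Of the 8 luminal markers 1 was called lower in each diet. The part of these markers in the activator levels was not tested.

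Whether the diet differences themselves changed with time was tested as an interaction. For Arntl the difference of PF from LO was 0.96 smaller at 32 than at 12 weeks on the log2 scale (estimate -0.96, SE 0.278, edgeR adjusted p = 0.452, unadjusted p = 0.00187), and for Npas2 the estimate was -0.97 (SE 0.377, edgeR adjusted p = 0.564). For the difference of PF from SO the estimates were -0.52 (SE 0.278) for Arntl and -0.79 (SE 0.376) for Npas2, whereas those of Per2 and Per3 were within their errors (-0.09, SE 0.279, and 0.00, SE 0.172). edgeR called 0 members and 0% of all genes in each of the 3 interactions, and DESeq2 also called 0 members, beside 0.226% of genes for PF against SO, 0.098% for PF against LO and 0% for LO against SO. In the same order, an unadjusted p under 0.05 was reached by 1, 3 and 1 members and by 9.49%, 7.79% and 3.33% of genes. No change of a diet difference with time was thus shown for any clock gene.

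The opposition of the activators to the Per and Nr1d genes was then followed from mouse to mouse. This pattern was named with earlier results of these data known, so its p-values describe these mice and are no independent test. For the correlations, log2 CPM values were centred on the mean of each diet and time group, so that differences between groups played no part. The p-values come from 100000 permutations of the mice within their groups. Over the 30 mice Arntl was negatively correlated with Per3 (Pearson r = -0.70, permutation p = 0.0006, adjusted over the 9 other clock genes 0.0027) and with Per2 (r = -0.64, permutation p = 0.00044, adjusted p = 0.0027). Spearman's rho was -0.67 and -0.68 (permutation p = 0.00105 and 0.00021, adjusted p = 0.00472 and 0.00189). Dbp passed as well (r = -0.49, permutation p = 0.0123, adjusted p = 0.0369, rho = -0.54, permutation p = 0.00709, adjusted p = 0.0213), and Nr1d1 passed by rho and not by r (r = -0.42, adjusted p = 0.0623, rho = -0.46, adjusted permutation p = 0.0359). With 1 mouse left out, Per2 and Per3 passed in all 30 cases, and Dbp did not pass in 12 of 30 (adjusted permutation p up to 0.116). Those 12 were, at 12 weeks, LO mice 1 and 2, PF mice 2, 3, 4 and 5 and SO mouse 1 and, at 32 weeks, PF mouse 2 and SO mice 1, 3, 4 and 5. Per1 (r = -0.26), Nr1d2 (r = -0.24), Cry1 (r = -0.02), Clock (r = 0.13) and Npas2 (r = 0.29) did not pass (adjusted permutation p from 0.345 to 0.933). The sample labels give diet, mouse number and weeks, and they name no batch. Within the 15 mice of 12 weeks the coefficients of Per3 and Per2 were -0.64 and -0.56 (adjusted permutation p = 0.15 for both), and within the 15 mice of 32 weeks -0.75 and -0.71 (adjusted permutation p = 0.0459 for both). Spearman's rho of Per3 and Per2 was -0.55 and -0.57 at 12 weeks (adjusted permutation p = 0.255 for both) and -0.68 and -0.73 at 32 weeks (adjusted permutation p = 0.0892 and 0.0516). Without the mice farthest from the median of Arntl, which were PF mouse 3 of 32 weeks and LO mouse 2 of 12 weeks, Per3 and Per2 stood at -0.62 and -0.65 and Dbp at -0.46 (adjusted permutation p = 0.0178, 0.00819 and 0.0693). With CPM by library totals in place of TMM the coefficients were -0.46 for Per3 and -0.50 for Per2, and neither passed (adjusted permutation p = 0.143 and 0.115).

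**Figure D3:**
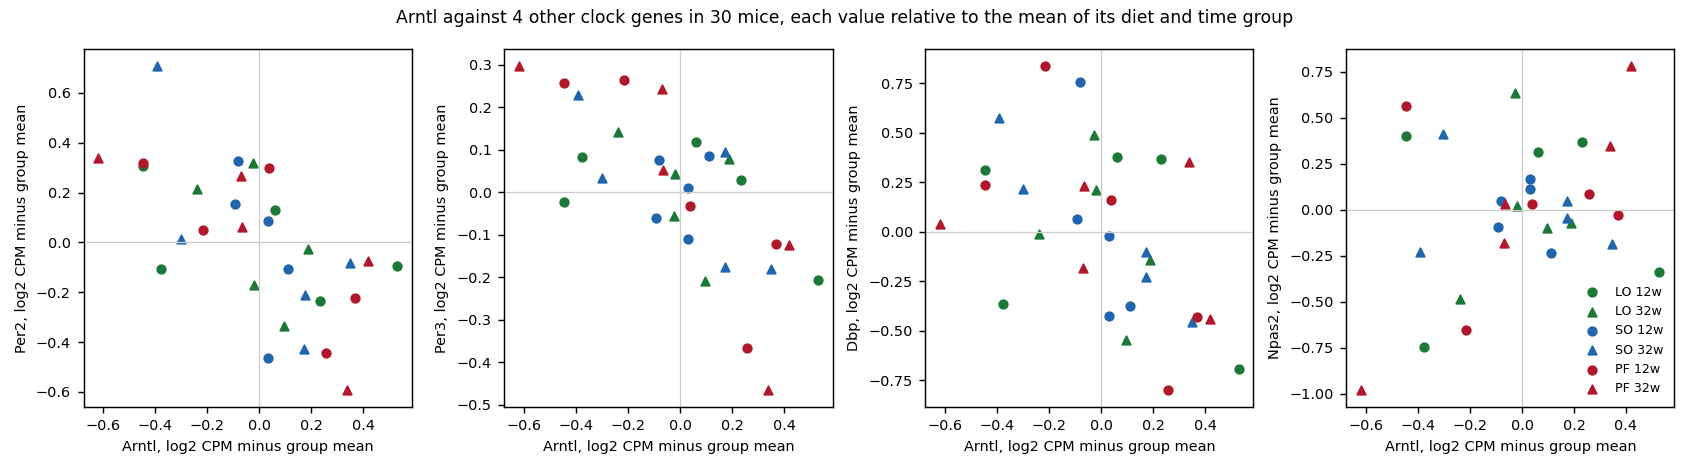
Each of the 30 mice by its Arntl level (horizontal axes) and its Per2, Per3, Dbp or Npas2 level (vertical axes), in log2 CPM minus the mean of its diet and time group. Circles are 12 weeks and triangles 32 weeks, LO green, SO blue and PF red. Points run from upper left to lower right for Per2 (r = -0.64), Per3 (r = -0.70) and Dbp (r = -0.49), and spread widely for Npas2 (r = 0.29).

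Taking all 45 pairs of the 10 genes, the negative Pearson coefficients that passed were those of Arntl. By rho the negative pairs of Npas2 with Cry1 (rho = -0.59, adjusted permutation p = 0.0169, r = -0.47, adjusted permutation p = 0.062) and of Arntl with Dbp (rho = -0.54, adjusted permutation p = 0.0341, r = -0.49, adjusted permutation p = 0.0577) passed as well. Of the 15 pairs of an activator with a Per or Nr1d gene, 11 were negative and 4 positive, and the 2 that passed after adjustment over 45 pairs were those of Arntl with Per2 and Per3 (adjusted permutation p = 0.00549 for both). Npas2 and Clock had no such pair past the threshold. Npas2 stood at 0.01 with Per1 and 0.13 with Nr1d1, and Clock was positively related to Nr1d2 (r = 0.45, adjusted permutation p = 0.0775). The 3 pairs among the activators were positive (r from 0.13 to 0.29) and none passed.

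The Per and Nr1d genes were positively related to each other. All 10 pairs among them were positive, with a median r of 0.48, and 4 passed, namely Per1 with Nr1d1 (r = 0.84, rho = 0.86), Per2 with Per3 (r = 0.66, rho = 0.55), Per3 with Nr1d2 (r = 0.60, rho = 0.49) and Per3 with Nr1d1 (r = 0.52, rho = 0.43), with adjusted permutation p = 0.000225, 0.00549, 0.0138 and 0.0138. By rho the adjusted permutation p of the pairs of Per3 with Nr1d2 and with Nr1d1 was 0.0547 and 0.068, while Per2 with Nr1d1 passed by rho alone (rho = 0.52, adjusted permutation p = 0.0324, r = 0.48, adjusted permutation p = 0.0604). Dbp, an output of the activators, had the closest partner of all in Nr1d1 (r = 0.87, rho = 0.85, adjusted permutation p = 0.000225), and it also passed with Per1 (r = 0.64, adjusted permutation p = 0.00847) and Per2 (r = 0.53, adjusted permutation p = 0.0245). The pairs Per1 with Nr1d1 and Dbp with Nr1d1 rested on no single time point, with r = 0.88 and 0.93 at 12 weeks, 0.77 and 0.77 at 32 weeks, and lowest values of 0.82 and 0.84 with any 1 mouse left out. The coefficients of Nr1d2 with Nr1d1, Per1 and Dbp were -0.16, -0.07 and -0.31 at 32 weeks and 0.63, 0.60 and 0.56 at 12 weeks, whereas those with Per3 and Per2 were 0.63 and 0.30 at 32 weeks and 0.59 and 0.04 at 12 weeks. The differences between the time points were not tested. The permutation p of 1e-05 behind the smallest adjusted values is the smallest that 100000 permutations can give.

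**Figure D4:**
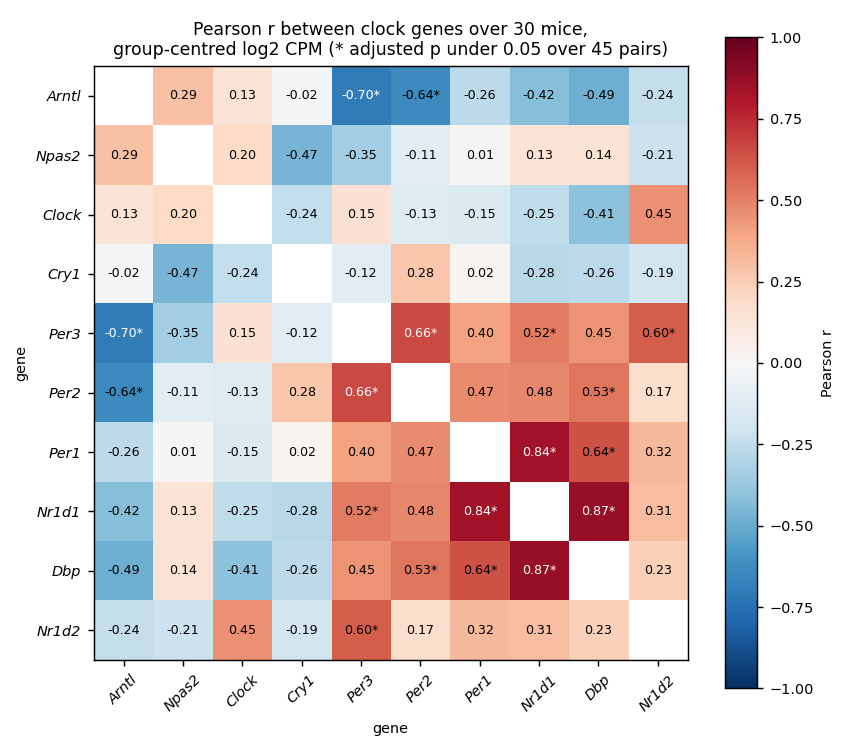
Pearson r for each pair of clock genes over 30 mice (rows and columns are genes, colour runs from -1 in blue to 1 in red, group-centred log2 CPM). Asterisks mark adjusted permutation p-values under 0.05 over 45 pairs. The red block joins Per3, Per2, Per1, Nr1d1 and Dbp, up to 0.87 for Nr1d1 and Dbp, and the row of Arntl crosses it in blue, down to -0.70 for Per3.

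Some clock genes varied with measures of the library or the tissue. Of 120 relations of the 10 genes with 12 such measures, 2 passed after adjustment. Clock followed the percentage of read pairs on no gene (r = 0.81, rho = 0.79, permutation p = 2e-05 for both, adjusted 0.0024), with r = 0.92 at 12 weeks, 0.80 at 32 weeks and 0.71 without the mice farthest from the median of that percentage. Dbp followed the mean level of 4 smooth muscle markers (r = 0.63, rho = 0.63, permutation p = 0.00079 and 0.00076, adjusted 0.0474 and 0.0456), with r = 0.56 at 12 weeks, 0.77 at 32 weeks and 0.61 without the 2 farthest mice. Arntl stood at -0.49 with smooth muscle and 0.40 with leukocyte markers (adjusted permutation p = 0.19 and 0.318), and Per2 at 0.53 and -0.44 (adjusted permutation p = 0.19 and 0.261). At 12 weeks alone the coefficients with smooth muscle were -0.77 for Arntl and 0.78 for Per2, and at 32 weeks -0.24 and 0.35. The part of these measures in the correlations between the clock genes was not tested.

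As a description of each mouse, the mean log2 CPM of Arntl, Npas2 and Clock was set against that of the 5 Per and Nr1d genes. The difference was -3.35 ± 0.22 in LO, -2.95 ± 0.28 in SO and -2.49 ± 0.53 in PF mice at 12 weeks, and -2.42 ± 0.21, -2.64 ± 0.38 and -2.50 ± 0.51 at 32 weeks (SD, n = 5 each). At 12 weeks it ran from -3.25 in PF mouse 4 to -1.86 in PF mouse 3. That span took in LO mouse 2 (-3.04) and the SO mice other than SO mouse 5 (-3.29), while the other LO mice lay between -3.66 and -3.30. At 32 weeks the PF mice spanned -3.24 to -1.95.

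The labels number the mice of each diet, and the members were examined by that number. At 12 weeks Dbp differed between the 5 numbers, with diet as a covariate (edgeR quasi-likelihood F test, adjusted p = 0.0410 over 15873 genes). In the order LO, SO and PF, the mice numbered 2 had 25.7, 33.2 and 27.2 CPM and those numbered 3 had 32.2, 32.1 and 21.0 CPM. The mice numbered 1 had 51.4, 72.8 and 43.1 CPM, those numbered 4 had 53.9, 42.3 and 65.7 CPM and those numbered 5 had 53.6, 45 and 41 CPM. The 6 mice numbered 2 or 3 were thus below the other 9. edgeR called 1 of 10 members beside 3.53% of all genes. DESeq2's likelihood ratio test called 4 members, Dbp (adjusted p = 1.06e-05), Per1 (0.000939), Per2 (0.00431) and Nr1d1 (0.0465), beside 11.4% of genes, and for these edgeR gave adjusted p = 0.0858 for Per1, 0.0969 for Per2 and 0.233 for Nr1d1. Arntl, Npas2, Clock, Cry1, Per3 and Nr1d2 passed neither test. The call of Dbp lay near the threshold. It was lost in edgeR with any 1 of 12 of the 15 mice left out, the adjusted p then reaching up to 0.161.

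**Figure D5:**
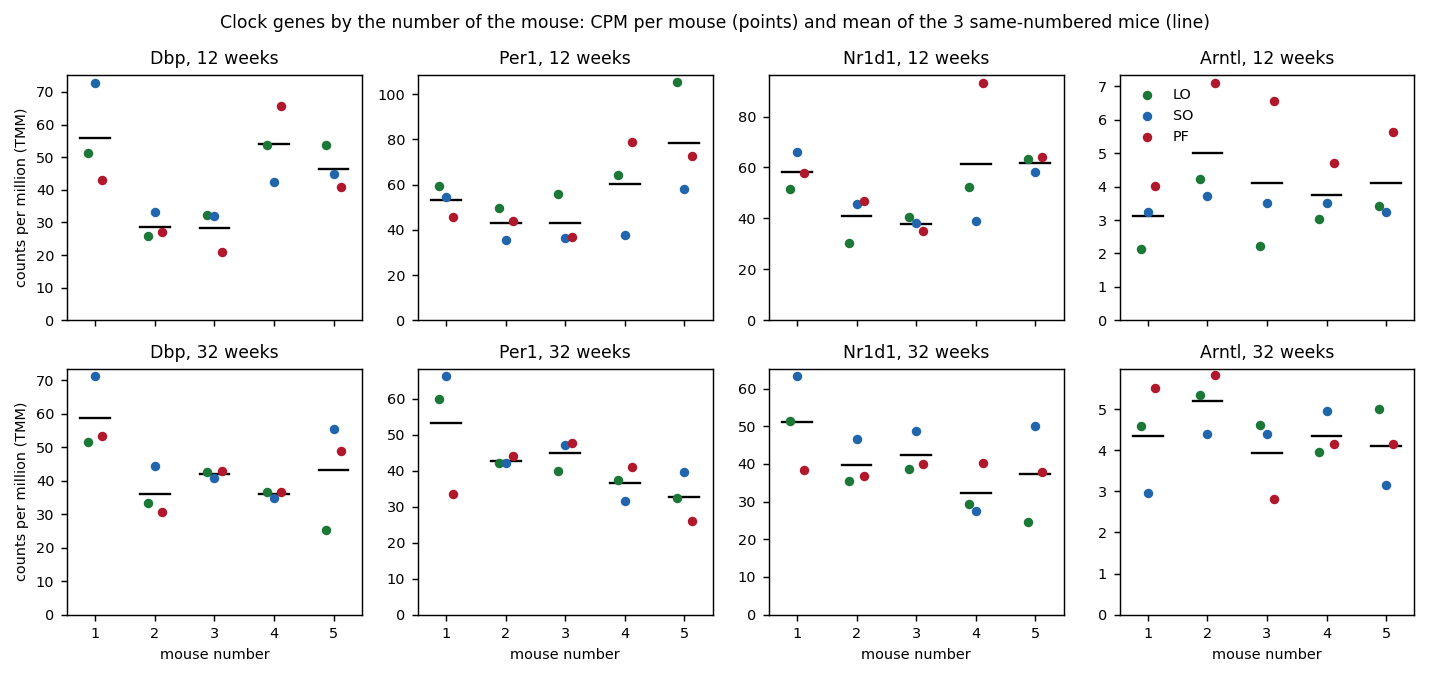
CPM (vertical axes, from 0, TMM scaled) of Dbp, Per1, Nr1d1 and Arntl by the number of the mouse in the labels (horizontal axes), at 12 weeks above and 32 weeks below. Points are single mice (LO green, SO blue, PF red) and lines are means of the 3 mice with the same number. For Dbp at 12 weeks the means are 55.8, 28.7, 28.4, 54.0 and 46.5 CPM for numbers 1 to 5.

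At 32 weeks Dbp was highest in the mice numbered 1, with 51.6 CPM in LO, 71.1 in SO and 53.2 in PF mice, each the highest of its diet. edgeR called 0 members there, beside 10.9% of all genes, with adjusted p = 0.125 for Dbp and 0.195 for Per1, while DESeq2 called Dbp (adjusted p = 0.0272), beside 15.5% of genes. The mean of Per1 for the mice numbered 5 was 78.6 ± 24.2 CPM at 12 weeks and 32.8 ± 6.76 CPM at 32 weeks (SD, n = 3 each). Of the immediate early genes, edgeR called 2 of 10 tested by number at 12 weeks, beside 3.53% of all genes. At 32 weeks it called 4 of 11, beside 10.9% of all genes. Junb and Ier2 were called at both time points (adjusted p = 0.00182 and 0.0158 at 12 weeks, 4.89e-05 for both at 32 weeks), and 2 of 4 smooth muscle markers were called at each. Their part in the Dbp values was not tested, and what the number stands for is not given in the sources used here.

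The other genes of the clock pathway were examined as 26 further genes, covering the second ARNTL gene, Cry2, the helix-loop-helix repressors, nuclear receptors, the relatives of Dbp, the kinases and ubiquitin ligases that act on clock proteins, and outputs that are rhythmic in many tissues. edgeR called 0 of the 26 in every comparison of diets or times. DESeq2 called 1 of the 26 in PF against SO and 1 in PF against LO at 12 weeks, beside 1.26% and 0.522% of genes, and 0 in the others. At 12 weeks 21 of the 26 were lower in the PF mice than in the LO mice and 5 were higher (median log2 fold change -0.13 against -0.00018 over all genes). In PF against SO mice 18 were lower and 8 higher (median -0.09 against -0.01 over all genes). These directions were not tested as a set. An unadjusted p under 0.05 was reached by 7 of them in PF against LO and 5 in PF against SO, beside 9.24% and 7.99% of all genes. Tef, a relative of Dbp, was 0.35 lower in PF than in LO mice (SE 0.0983, edgeR adjusted p = 0.367). Bhlhe40, a repressor that is also induced by stress, went the other way and was 0.63 higher in PF than in SO mice (SE 0.191, edgeR adjusted p = 0.246) and 0.77 higher in LO than in SO mice (SE 0.191, edgeR adjusted p = 0.999). In LO mice 21 of the 26 were lower at 32 than at 12 weeks (median -0.15 against -0.01 over all genes).

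By the number of the mouse, edgeR called 2 of the 26 at 12 weeks, beside 3.53% of all genes, Ciart (edgeR adjusted p = 0.0336) and Bhlhe41 (adjusted p = 0.0374 in edgeR), both repressors of the ARNTL-CLOCK pair. At 32 weeks it called 3 of the 26, a share near the 10.9% of all genes called, the kinase gene Csnk1e (edgeR adjusted p = 0.0193) and the outputs Tspan4 (0.0241) and Por (0.00562). DESeq2 called 6 of the 26 at 12 weeks and 5 at 32 weeks, beside 11.4% and 15.5% of genes. Of the 6 glucocorticoid-responsive genes, which follow the daily rise of the hormone, edgeR called 0 in any comparison of diets or times. DESeq2 called Klf9 in LO mice between the time points, beside 6.70% of genes.

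Among all 16604 other genes that passed the filter in 30 mice, Per3 had the 5th lowest and Per2 the 26th lowest correlation with Arntl, while Dbp ranked 335th and Nr1d1 861st from the low end. The gene with the lowest coefficient was Leng8 (r = -0.75), followed by Upk1a, AU022754 and Tepp, with Tomm6os, Dennd6b, Tgfbr3l, Cep164 and Akap8l after Per3 (-0.69 to -0.67), and the genes with the highest were Efcab11 (r = 0.74), Rbmx (0.71), Serpinb8 (0.71), Mpp6 (0.70) and Kdelc2 (0.68), followed by Stx7, Cd55, Gmfg, Pgam1-ps2 and Cklf (0.64 to 0.63). None of the 10 highest is a clock gene in the lists used. Npas2 was 2112th from the high end. These coefficients describe 30 mice whose counts were scaled together, and they were not tested.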

How the data were processed

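Gene counts of the ventral prostate were used for 30 mice, each a separate animal. Per the labels, libraries were made with a stranded mRNA kit from RNA of high integrity, and the study's methods give paired-end reads of 100 bases. The authors aligned the reads and counted them per gene, and they deposited raw counts with no normalization. The submitters' processing notes name TopHat2, HTSeq, DESeq2 and the build GRCm38.p6. The versions and the strand setting of the counting are not given in the sources used here. Lines of the tables that name no gene were kept out of library sizes, and read pairs on no gene made up 6.67% to 12.2% per mouse. Of 39179 identifiers 37607 were matched to a symbol.

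Counts were filtered with filterByExpr, scaled with TMM and fitted with edgeR 4.0.16 (quasi-likelihood F test, limma 3.58.1, R 4.3.3), with Benjamini-Hochberg adjustment over all genes tested and a threshold of 0.05. Diets were compared within the 15 mice of a time point. Time and its interaction with diet were fitted in all 30 mice, and the mouse number was tested within a time point with diet as a covariate. DESeq2 1.42.0 was run as an alternative. Correlations used log2 CPM with a prior count of 2, centred on group means, and 100000 permutations of the mice within groups (Python 3.11.15, numpy 2.4.6, pandas 2.3.3, statsmodels 0.14.6). Figures were drawn with matplotlib 3.10.9. The scripts were tested on simulated data.

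The members, the gene lists and the opposition followed from mouse to mouse were chosen with earlier results of these data known. The text names the 10 members, genes of the listed pathways and markers, and the 10 genes with the highest and the 10 with the lowest correlation to Arntl. Values of 1 of the listed pathway genes are not reported here. The alternatives were other size factors, no filter, DESeq2, other samples in the fit, the mouse number as a block, other correlation measures and each mouse left out. Scaling by library totals without factors was chosen after seeing the data. At 27590631 to 41301707 assigned pairs per mouse, counting error matters mainly for Arntl and Npas2.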

Additional observations from a re-analysis of the deposited data

Results flagged for a closer look

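Per1 in LO mice at 12 weeks held a mouse far from the others. LO mouse 5 had 105 CPM against 64.3 CPM in the next mouse, a gap of 0.736 of the group's range, where Dixon's 95% critical value for 5 mice is 0.71. Nr1d2 in LO mice at 32 weeks had the second such value, with 116 CPM in LO mouse 2 against 96.7 CPM in the next, a gap of 0.760 of the range. These were 2 of 66 groups tested, and chance alone flags about 1 in 20 groups.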

How the results depend on the processing

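DESeq2 called clock genes where edgeR called 0, namely 2 in PF against SO and 3 in PF against LO mice at 12 weeks, 2 between the time points in LO mice and, by mouse number, 4 at 12 weeks (edgeR 1) and 1 at 32 weeks. Its counts over all genes were 221 (PF against SO) and 76 (PF against LO) at 12 weeks, 109, 84 and 6 at 32 weeks (PF against SO, PF against LO, LO against SO), 1096 and 52 between the time points in LO and PF mice, 44 and 14 for the changes of PF against SO and PF against LO with time, and 1829 and 2758 by mouse number. With library totals and no scaling factors, chosen after seeing the data, edgeR called 2 clock genes and 1375 genes between the time points in LO mice, 2 and 2802 in SO mice and 0 genes in PF mice, 3 clock genes and 1143 genes by mouse number at 12 weeks, and 1 gene in PF against LO mice at each time point. The fit of all 30 mice called 2 genes in PF against LO mice at each time point, that of only the compared diets 1 gene in LO against SO mice at 32 weeks, and that without a filter 0 genes between the time points in PF mice. The cause of these differences was not tested.

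With 1 mouse left out, the clock genes called ranged from 0 to 2 between the time points in LO mice (above 0 without LO mouse 4, PF mouse 2 or PF mouse 3 of 32 weeks), from 0 to 2 by mouse number at 12 weeks and from 0 to 1 at 32 weeks (1 without LO mouse 5 or PF mouse 1). Over all genes the counts ranged from 0 to 131 in PF against SO mice at 12 weeks (131 without PF mouse 5) and from 0 to 1 at 32 weeks, from 0 to 1 in PF against LO mice at 12 weeks, from 47 to 1043, 226 to 1556 and 0 to 7 between the time points in LO, SO and PF mice, from 0 to 4 for the change of PF against SO with time, and from 30 to 1217 and 979 to 2246 by mouse number.

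Of the correlations with Arntl, 3 passed in all 30 mice, and 0 passed at 12 weeks alone, by r or by rho, at 32 weeks alone by rho, or with CPM by total counts. Signs turned for Npas2 at 12 weeks (r = -0.052, rho = -0.17), Cry1 at 12 weeks (r = 0.36, rho = 0.35), Nr1d2 without the 2 mice farthest from the median of Arntl (0.15), and Cry1 with 1 mouse left out (range -0.15 to 0.11, with 0.0209, 0.0020, 0.0204, 0.0639, 0.105, 0.0796 and 0.0090 as the positive values). None of these had passed.

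The mouse numbers did not meet the criterion for pairing, a correlation over 0.1 in every same-numbered pair. Same-numbered mice correlated by 0.0567 on average at 12 weeks (5 of 15 pairs over 0.1) and 0.132 at 32 weeks (10 of 15), against -0.0139 and -0.0292 for different numbers, and 3 of 15 and 6 of 15 mice correlated best with their own number. With the number as a block edgeR called 1 clock gene between the time points in LO mice (Arntl, adjusted p = 0.0395), and 668 genes there against 448 without it. It changed no other call of a clock gene in the diet and time comparisons. Centring on the number as well, 7 correlations with Arntl passed, and Clock turned to -0.0021.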
